A study of Mus musculus with 24 samples.

Results

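The genes described here make red blood cells and heme. They are 31 mouse genes chosen by name: 7 enzymes of heme synthesis, 2 iron uptake genes, 6 transcription factors, the erythropoietin receptor, 3 genes of the red cell membrane skeleton, 6 surface proteins and 6 cytosolic or other red cell proteins. Of these 30 were measured, among 18193 genes in all, and 17 had a single probe set. Ahsp, the chaperone of alpha globin, was not analysed here. Where a gene had several probe sets, the brightest on average across a tissue's 12 arrays stood for it.

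Total RNA was taken on the day of birth (day 0) from C57BL/6 pups, from liver and from skeletal muscle of the hindleg, and read on Affymetrix arrays. The dams ate 1 of 4 diets, from day 1 of pregnancy to delivery. These were normal protein with 20% casein (NP), the same with 1% taurine in the drinking water (NPtau), low protein with 8% casein (LP), and low protein with the taurine water (LPtau). Each diet had 3 arrays per tissue, 24 arrays in all, and this small number limits the precision. Per the labels the 3 are biological replicates, with nothing on whether the pups came from different litters, so p-values describe the spread of these samples and no more. No group carries a genetic change, and whole tissue was used, so each value mixes all cells of the organ. In such samples fewer cells of a type and less RNA per cell cannot be told apart.

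Before birth the liver is the main site of red cell formation, and at birth islands of erythroid cells still lie between the hepatocytes. GATA1, TAL1, LMO2, KLF1, NFE2 and GFI1B form a network of transcription factors that drives erythroid genes. ALAS2 starts heme synthesis in erythroid cells, transferrin receptor and mitoferrin bring in the iron, and ferrochelatase inserts it into the ring. Spectrin, ankyrin, adducin and band 3 then build the membrane of the maturing cell.

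GATA1 binds DNA at GATA letters and KLF1 at CACC-type letters, and these factors are members themselves. The upstream sequences of 4 members that recur in the results are shown for that reason: Hemgn, the member with the most negative difference in LP liver, Alas2, the first enzyme of erythroid heme synthesis, and the factor genes Klf1 and Tal1. Each is the 250 bases upstream of a RefSeq gene start in build GRCm38.p6, written 5′ to 3′ on the gene's strand. Hemgn lies at chr4:46404184-46404433 on the minus strand. Alas2 lies at chrX:150547167-150547416, Klf1 at chr8:84901732-84901981 and Tal1 at chr4:115056176-115056425, all on the plus strand. Capitals mark AGATAA or TGATAA and CCNCNCCC, read on both strands, with overlapping matches run together. In Hemgn the 4 matches to CCNCNCCC overlap within a single run of G, which holds no CACC on either strand.
Hemgn: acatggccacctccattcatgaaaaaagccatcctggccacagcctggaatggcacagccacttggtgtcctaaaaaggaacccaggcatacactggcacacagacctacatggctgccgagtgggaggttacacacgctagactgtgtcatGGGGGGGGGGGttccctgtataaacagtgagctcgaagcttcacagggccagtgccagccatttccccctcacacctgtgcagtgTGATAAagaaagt
Alas2: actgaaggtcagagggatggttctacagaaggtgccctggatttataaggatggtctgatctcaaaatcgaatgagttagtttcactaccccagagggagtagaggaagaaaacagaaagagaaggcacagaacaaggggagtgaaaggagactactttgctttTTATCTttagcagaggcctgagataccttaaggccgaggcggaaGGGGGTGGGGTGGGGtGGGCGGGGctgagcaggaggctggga
Klf1: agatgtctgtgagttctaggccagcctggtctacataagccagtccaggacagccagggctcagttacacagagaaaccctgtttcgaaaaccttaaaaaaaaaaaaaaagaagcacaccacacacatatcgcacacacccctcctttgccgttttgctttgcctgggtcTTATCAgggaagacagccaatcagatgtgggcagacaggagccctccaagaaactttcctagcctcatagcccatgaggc
Tal1: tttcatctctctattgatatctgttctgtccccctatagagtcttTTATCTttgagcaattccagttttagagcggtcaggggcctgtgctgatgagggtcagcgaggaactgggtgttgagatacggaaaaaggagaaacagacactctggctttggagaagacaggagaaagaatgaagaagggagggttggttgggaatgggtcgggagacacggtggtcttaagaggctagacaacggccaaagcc
The GATA match ended 8 bases before the start in Hemgn, 75 in Klf1, 81 in Alas2 and 200 in Tal1. RefSeq windows were found for 22 members, 26 windows in all. AGATAA or TGATAA stood in 13 of the 26 (50%), against 16.6% of all 32851 windows of that length. CCNCNCCC stood in 57.7% against 45.9%, and TGANTCA, the letters bound by NFE2, in 7.7% against 6.7%. These letter matches describe the windows and are not binding data.

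Values are log2 expression values, and a difference of 1 is a change by a factor of 2. In liver all 30 members lay above the array's median of 5.35 to 5.39 on each of the 12 arrays. In muscle, where median values were 4.95 to 5.04, 17 members lay above the median on all 12 arrays, 6 lay below it on all 12 and 7 lay on both sides. The 6 were Gata1, Nfe2, Rhag, Kel, Car1 and Hemgn. Albumin (Alb), the main product of hepatocytes, read 14.85 to 15.01 in liver and skeletal actin (Acta1) 14.20 to 14.91 in muscle, so both tissues matched their labels. Liver and muscle were normalized apart, per the labels, so no level was compared between them.

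The liver arrays of a diet did not read alike for these genes. Relative to the mean of the 3 NP arrays, the mean of all 30 members was -0.54, -0.20 and -0.04 in LP replicates 1, 2 and 3. It was 0.10, -0.71 and 0.33 in NPtau replicates 1, 2 and 3, and -0.35, -0.62 and 0.13 in LPtau replicates 1, 2 and 3. NPtau replicate 2 had 25 members below the lowest NP value, where 27.5% of all genes lay below. NPtau replicate 3 had 25 members above the highest NP value, where 29.9% of all genes lay above. LP replicate 1 and LPtau replicate 2 each had 26 members below, against 26.2% and 23.8% of all genes. LPtau replicate 3 had 0 below and 13 above, against 15.7% and 37.4% of all genes, so its count above was near the share of all genes. In NPtau the members were thus low on 1 array and high on another, and in LP and LPtau their means also differed between arrays of the same diet.

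**Figure D1:**
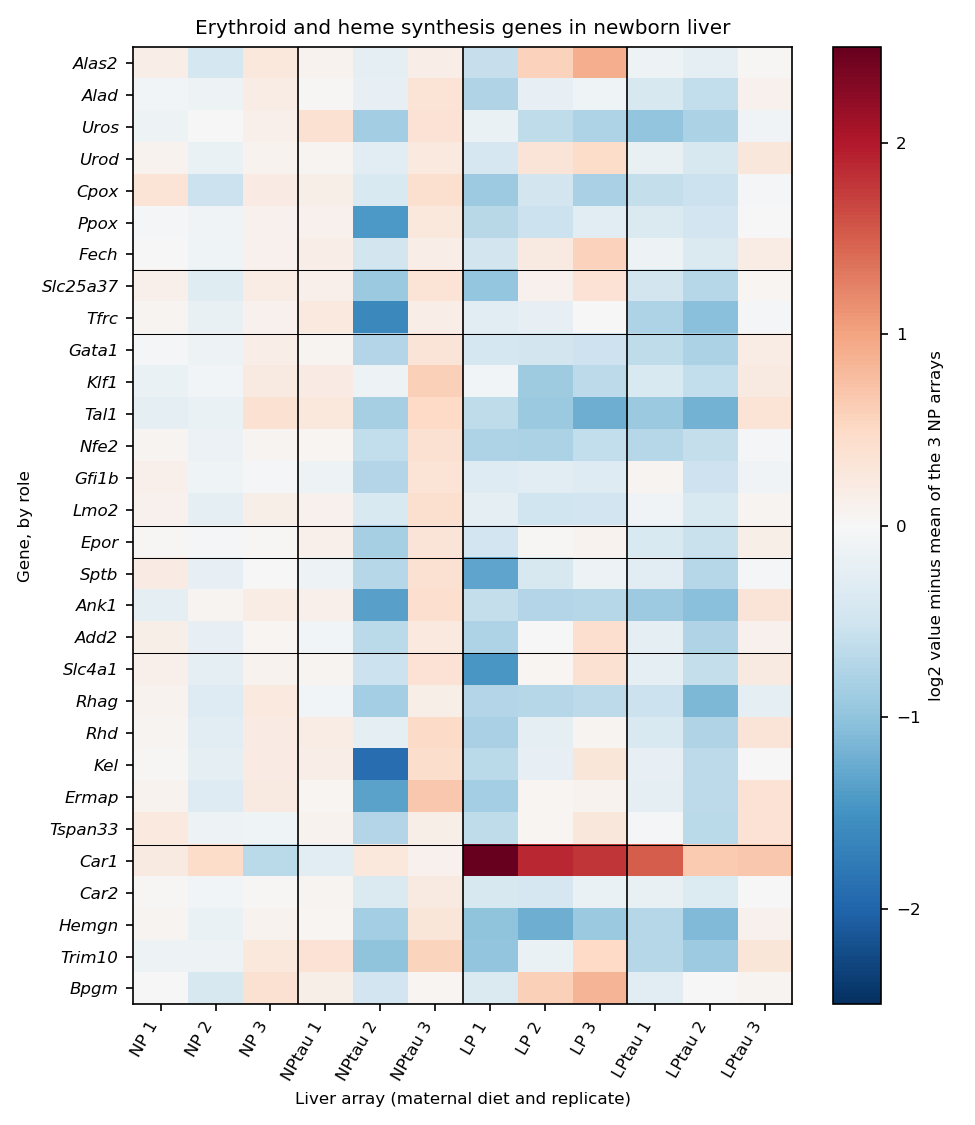
Log2 value of each measured gene (rows, grouped by role) on each of the 12 liver arrays (columns, by maternal diet), minus the mean of the 3 NP arrays of that gene; blue is lower and red is higher. NPtau replicate 2, LP replicate 1 and LPtau replicate 2 are blue over most rows, while the Car1 row is red in all 6 low protein arrays; the Car1 value of LP replicate 1 lies just past the end of the colour scale.

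The sex of the pup moved with part of this pattern. By the level of Xist against Y-linked genes, 1 of 3 NP, 2 of 3 NPtau, 2 of 3 LP and 1 of 3 LPtau livers were female, among them NP replicate 2, NPtau replicate 2, LP replicate 1 and LPtau replicate 2. With diet in the limma fit, 29 of 30 members had a lower value in females in liver (median female minus male -0.37, over all genes -0.01, with 51.5% of all genes negative). Of the members 0 passed an adjusted p of 0.05 (0.022% of all genes did), and 7 had an unadjusted p under 0.05, against 8.26% of all genes. The smallest p was that of Cpox, at -0.49 (SE 0.14, adjusted p = 0.484 with limma). In muscle the median was -0.03. NPtau replicate 1 and LP replicate 3 were female too and were not low, with member means of 0.10 and -0.04. Of the males, LPtau replicate 1 was low at -0.35 with 22 members below the NP range, and LP replicate 2 was at -0.20 with 16 below.

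Low protein was set against normal protein in liver, the comparison that asks how the diet of the dam changed the newborn organ. Car1 rose and was the single member called, while 25 of 30 members had a negative difference. The median over the members was -0.32, against 0.05 over all genes, of which 41.5% were negative. Calls required a limma p under 0.05 after Benjamini-Hochberg adjustment across all genes. They took in 2.34% of all genes, 1.11% higher in LP, so 1 of 30 is close to the background share. An unadjusted p under 0.05 was found for 6 members, against 22.7% of all genes. The same shares, 2.34% and 22.7%, are the background for the counts of member groups and other lists in this comparison. Without LP replicate 1 the member median was -0.13 with 17 of 30 negative, and with the sex of the pup in the fit it was -0.17 with 20 negative. Most of the negative median was thus lost without that array. Over the 12 fits without single arrays the median ran from -0.44 to -0.13 and stayed negative.

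Whether the groups overlapped was read apart from the fit. All 3 LP values lay below all 3 NP values for 10 members, against 10.9% of all genes. These were Uros, Ppox, Gata1, Tal1, Nfe2, Gfi1b, Ank1, Rhag, Car2 and Hemgn. All 3 lay above for Car1 alone, against 18.3% of all genes. None of the 10 passed the test over all genes.

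**Figure D2:**
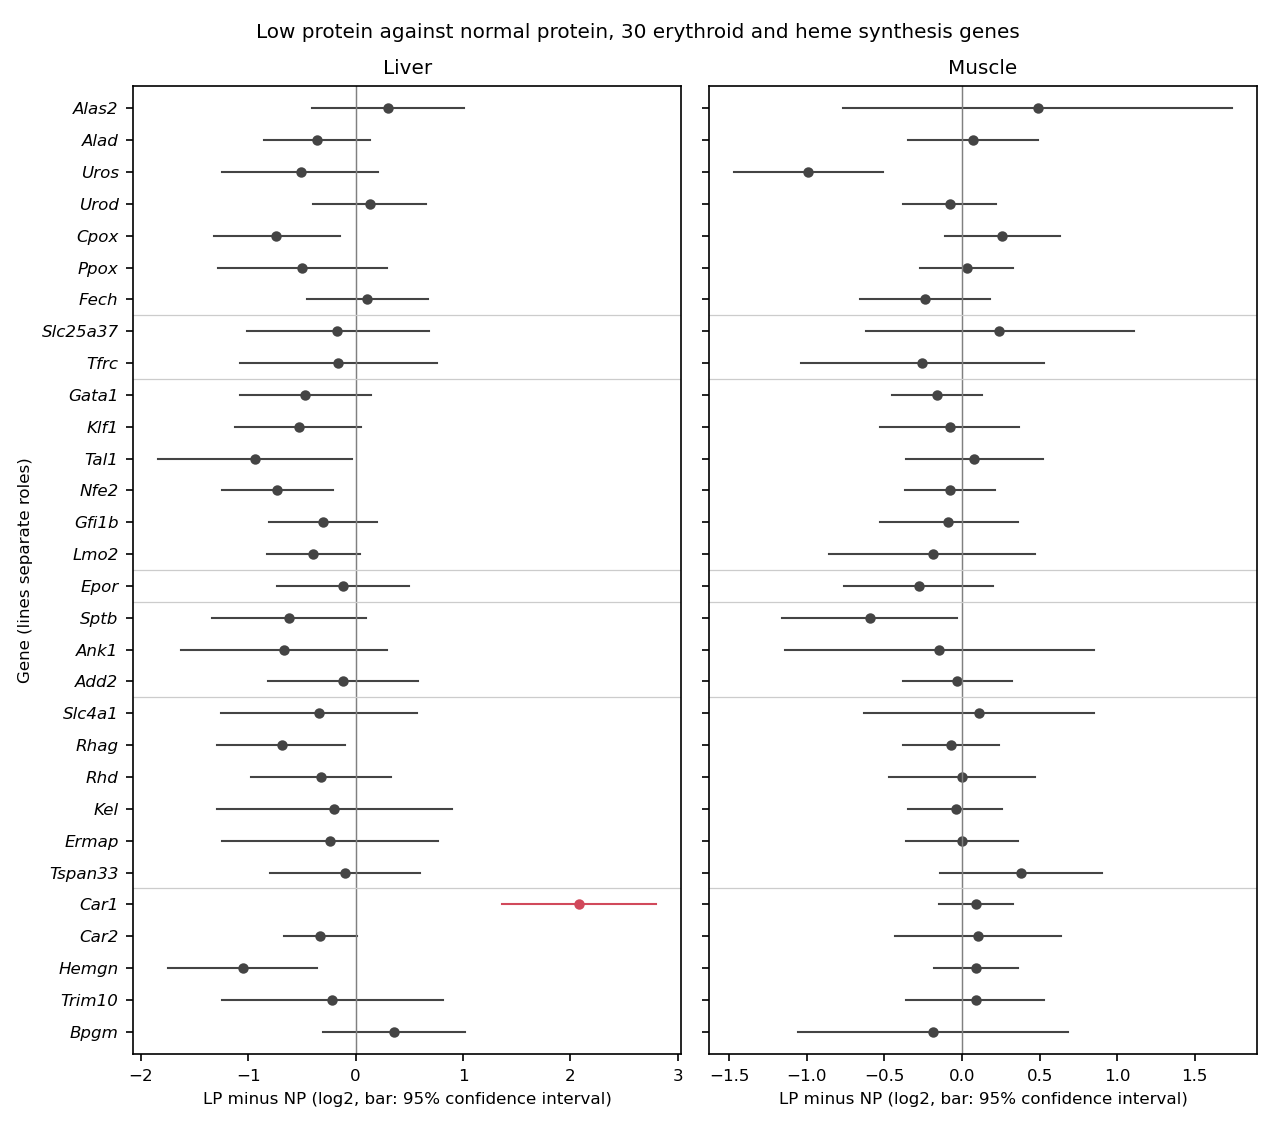
LP minus NP (log2, limma, 3 arrays per group) for the 30 members in liver on the left and muscle on the right, with 95% confidence intervals as bars and called genes in red. Car1 in liver, at 2.08, is the only red point, and most liver points lie left of 0 while the muscle points scatter around 0.

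The transcription factors all had negative differences. Of the 6 genes 0 were called and 2 had an unadjusted p under 0.05, with a median of -0.50. Tal1, which nucleates the factor complex on DNA, read 9.64, 9.70 and 10.23 in NP and 9.22, 8.92 and 8.63 in LP. The groups did not overlap, and limma gave -0.94 for LP minus NP (SE 0.41, adjusted p = 0.207). In NPtau it read 10.13, 9.03 and 10.35, and in LPtau 8.92, 8.68 and 10.20, so replicate 2 of the former and replicate 3 of the latter stood away from their groups.

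Nfe2, a subunit of the factor that acts at globin control regions, read 10.54, 10.31 and 10.54 in NP and 9.69, 9.67 and 9.85 in LP. LP minus NP was -0.73 (SE 0.23, adjusted p = 0.112 with limma). The NPtau values were 10.51, 9.84 and 10.85 and the LPtau values 9.76, 9.87 and 10.41. The 3 LP arrays were close together and below both control groups apart from NPtau replicate 2. Nfe2 fell past the threshold when NPtau replicate 2 was left out (adjusted p = 0.0457 with limma), and when only NP and LP arrays were fitted (adjusted p = 0.0368). Those fits called 674 and 315 of all genes. Nfe2 stayed uncalled in 11 of 12 fits without single arrays and in 7 of 10 other alternatives.

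Gata1, the master factor of the lineage on the X chromosome, read 9.48, 9.40 and 9.70 in NP and 9.09, 9.07 and 9.01 in LP, with 9.59, 8.80 and 9.85 in NPtau and 8.90, 8.74 and 9.72 in LPtau. The LP values were tight and below those of NP, by -0.47 on average (SE 0.28, adjusted p = 0.336 with limma). Klf1, which activates adult beta globin and many membrane genes, read 10.24, 10.34 and 10.63 in NP and 10.34, 9.52 and 9.74 in LP. Its NPtau values were 10.61, 10.27 and 11.00 and its LPtau values 10.03, 9.78 and 10.63. LP replicate 1, low for most members, lay inside the NP range for Klf1, and the difference was -0.53 (SE 0.27, adjusted p = 0.259). Gfi1b, a repressor needed for red cell and platelet lineages, had -0.30 (SE 0.23), and Lmo2, the bridging protein of the TAL1 complex, -0.40 (SE 0.20).

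The factors moved beside genes of cell division. The mean of the 6 factors relative to NP was -0.41, -0.64 and -0.64 in the 3 LP arrays, and that of 29 cell cycle genes was -0.42, -0.56 and -0.60. In NPtau replicate 2 the means were -0.57 and -0.52, and in LPtau they were -0.44, -0.68 and 0.11 for the factors and -0.33, -0.61 and 0.14 for the cell cycle genes. Of the 29 genes 1 fell, the cyclin Ccne2 of DNA replication start, by 1.59 (SE 0.20). The list median was -0.50. The part of cell division in the factor values was not tested.

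**Figure D3:**
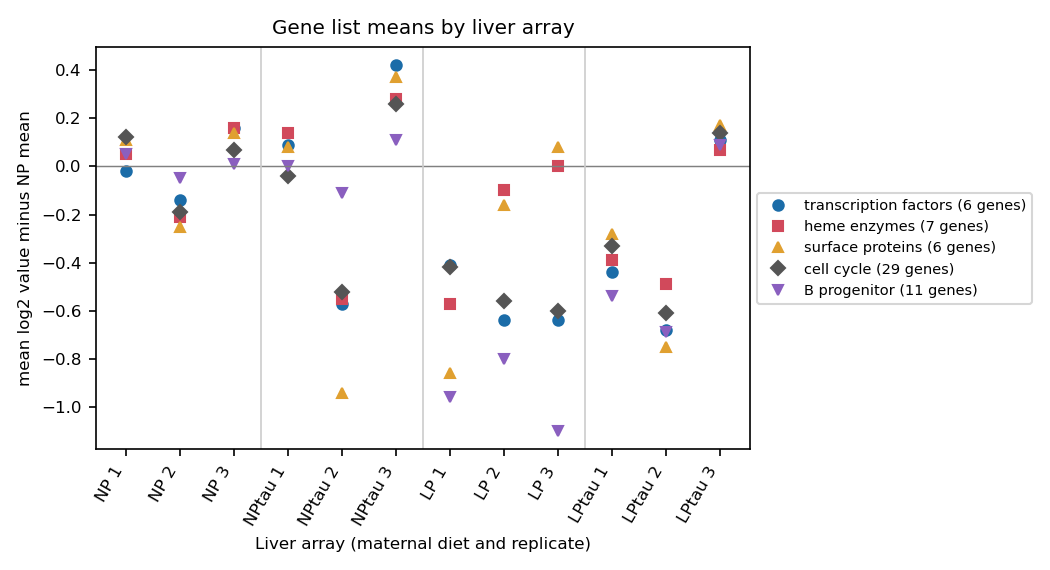
Mean log2 value of 3 member groups and of 2 other gene lists on each liver array, relative to the mean of the 3 NP arrays (y axis; 1 symbol per list, arrays along the x axis by diet). Factors and cell cycle genes lie close together on every array, whereas heme enzymes and surface proteins return to about 0 in LP replicates 2 and 3.

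The 7 heme enzymes split by their place in LP replicates 2 and 3. By limma 0 were called and 1 had an unadjusted p under 0.05, 4 differences were negative and 3 positive, and the median was -0.36. Alas2, the erythroid enzyme that sets the rate of heme synthesis, read 12.07, 11.47 and 12.17 in NP and 11.32, 12.47 and 12.82 in LP. LP replicate 1 was the lowest of the 12 liver arrays and LP replicate 3 the highest, and the groups overlapped. The NPtau values were 11.99, 11.67 and 12.07, and the LPtau values 11.77, 11.65 and 11.93. The difference was 0.30 (SE 0.32, adjusted p = 0.601 with limma), 0.74 without LP replicate 1 and -0.01 without LP replicate 3. With both LP replicate 1 and NPtau replicate 2 left out, it was 0.74 (SE 0.20, adjusted p = 0.0373 with limma). That alternative was chosen after seeing the data, and 2914 of 18193 genes were called under it. As LP replicate 1 was the lowest array for Alas2, this pass is no separate test of the gene.

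Urod, which makes coproporphyrinogen, followed Alas2 across the LP arrays. It read 12.31, 12.05 and 12.31 in NP and 11.81, 12.55 and 12.69 in LP. Values were 12.30, 11.94 and 12.46 in NPtau and 12.04, 11.83 and 12.51 in LPtau. The LP array low for Alas2 was low here too, and the difference was 0.13 (SE 0.24, adjusted p = 0.782 with limma) and -0.04 without LP replicate 3. Fech, the ferrochelatase, ranged from 12.06 to 13.10 over the 12 arrays, was highest in LP replicate 3, and had 0.11 (SE 0.25), a sign shared by 2 of 4 probe sets.

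Cpox, the coproporphyrinogen oxidase, did not follow them. It read 11.38, 10.49 and 11.24 in NP and 10.12, 10.57 and 10.22 in LP. It read 11.19, 10.66 and 11.43 in NPtau and 10.45, 10.49 and 11.01 in LPtau. NP replicate 2 was low and lay inside the LP range. The difference was -0.74 (SE 0.27, adjusted p = 0.143 with limma), with all 3 probe sets negative. Alad, which joins aminolevulinate into a pyrrole, had -0.36 (SE 0.22). Uros, which closes the ring, had -0.51 (SE 0.33) with 1 of 2 probe sets of that sign, and Ppox, the protoporphyrinogen oxidase, -0.50 (SE 0.36) with 2 of 3. Ppox was lowest in NPtau replicate 2, at 8.03.

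Tfrc, the transferrin receptor, read 12.43, 12.19 and 12.48 in NP and 12.10, 12.16 and 12.36 in LP. In NPtau it read 12.62, 10.75 and 12.54, and in LPtau 11.60, 11.33 and 12.31. The lowest array was NPtau replicate 2 and not an LP array. The difference of LP from NP was -0.16 (SE 0.42, adjusted p = 0.852 with limma), with 1 of 3 probe sets of that sign and 0.03 when the probe sets were averaged. Slc25a37, the mitochondrial iron importer mitoferrin, had -0.17 (SE 0.38) and ranged from 11.29 in LP replicate 1 to 12.61 in LP replicate 3. Epor, the receptor for erythropoietin, had -0.12 (SE 0.28) and ranged from 7.97 in NPtau replicate 2 to 9.13 in NPtau replicate 3.

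The 3 membrane skeleton genes were negative with a median of -0.62, and limma called 0, with 0 at an unadjusted p under 0.05. Ank1, which ties band 3 to spectrin, had -0.67 (SE 0.44) with all 4 probe sets negative, from -0.67 to -0.02. Its values were 9.62, 9.94 and 10.06 in NP and 9.28, 9.15 and 9.17 in LP, with no overlap, and NPtau replicate 2 was lower still at 8.51. Sptb, beta spectrin, had -0.62 (SE 0.33), with LP replicate 1 at 7.55 and the other two LP values at 8.47 and 8.74. Another probe set of Sptb gave 0.24. Add2, an adducin that caps actin, had -0.12 (SE 0.32), and its 5 probe sets ran from -0.12 to 0.24. The negative sign of these 2 genes thus depended on the probe set.

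Surface proteins were negative in 6 of 6 genes, with 0 called by limma, 1 at an unadjusted p under 0.05 and a median of -0.28. Slc4a1, the anion exchanger band 3, read 12.97, 12.60 and 12.93 in NP and 11.38, 12.88 and 13.21 in LP. Its values were 12.90, 12.29 and 13.19 in NPtau and 12.59, 12.23 and 13.05 in LPtau. LP minus NP was -0.34 (SE 0.41, adjusted p = 0.647 with limma), and 0.21 without LP replicate 1. Its 3 probe sets ran from -0.43 to 0.07. Rhag, the Rh-associated ammonium channel, behaved otherwise. It read 11.29, 10.89 and 11.45 in NP and 10.48, 10.50 and 10.56 in LP, at -0.69 (SE 0.27, adjusted p = 0.168). Its NPtau values were 11.15, 10.37 and 11.35 and its LPtau values 10.68, 10.08 and 10.98. The 3 LP values lay close together and below all 3 NP values. The blood group genes Rhd and Kel had -0.32 (SE 0.30) and -0.20 (SE 0.50), the erythroid membrane protein Ermap -0.24 (SE 0.46) and the tetraspanin Tspan33 -0.10 (SE 0.32). The 4 probe sets of Tspan33 ran from -0.10 to 0.12. Kel had its lowest value, 8.36, in NPtau replicate 2 and its other NPtau values at 10.43 and 10.71.

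Car1, the cytosolic carbonic anhydrase I of red blood cells, stood apart from the rest of the members. It read 8.70, 8.93 and 7.80 in NP, 8.19, 8.74 and 8.58 in NPtau, 11.04, 10.37 and 10.26 in LP, and 10.00, 9.14 and 9.15 in LPtau. All 3 LP values lay above those of every other group, and all 3 LPtau values lay between them and the normal protein groups. Car1 rose by 2.08 in LP against NP (SE 0.33, 95% confidence interval 1.36 to 2.80, a factor of 4.23, adjusted p = 0.0172 with limma). The group means were 8.48 ± 0.60 (SD, n = 3) in NP and 10.56 ± 0.42 (SD, n = 3) in LP. The array highest for Car1 was LP replicate 1, on which 26 other members lay below the NP range. The call was lost without NP replicate 1 (adjusted p = 0.057 with limma), NP replicate 3 (adjusted p = 0.0521), LP replicate 2 (adjusted p = 0.0746) or LP replicate 3 (adjusted p = 0.0504), at differences of 2.19, 1.74, 2.17 and 2.23. It was kept with the sex of the pup in the fit, at 2.05 (adjusted p = 0.0316).

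Car2, the faster carbonic anhydrase II of red cells and many other cells, read 13.20, 13.10 and 13.19 in NP and 12.76, 12.75 and 13.00 in LP. Its NPtau values were 13.23, 12.80 and 13.39 and its LPtau values 12.98, 12.82 and 13.17. The difference was -0.33 (SE 0.15, adjusted p = 0.228 with limma), of opposite sign to that of Car1, and the groups did not overlap. Car1 and Car2 lie in a cluster on chromosome 3 (GRCm38.p6) in the order Car13, Car1, Car3 and Car2, between 14641727 and 14900770. Car3, a carbonic anhydrase of muscle, fat and liver, fell by 2.47 (SE 0.47, adjusted p = 0.028 with limma), from 8.80, 8.10 and 9.32 in NP to 6.24, 6.53 and 6.05 in LP. Of its 4 probe sets 2 had that sign. Over 13 other carbonic anhydrase genes 1 was called lower, 0 were called higher and the median was 0.11. Car8 and Car14 had all LP values above NP without a call. They were at 1.40 (SE 0.44, adjusted p = 0.107 with limma) and 0.77 (SE 0.20, adjusted p = 0.0715). Car13 had all LP values below NP, at -0.37 (SE 0.15), and was not called.

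Hemgn, hemogen, a nuclear protein of blood-forming cells, had the most negative difference. It read 12.22, 11.99 and 12.25 in NP and 11.14, 10.93 and 11.23 in LP. NPtau gave 12.21, 11.31 and 12.45 and LPtau 11.44, 11.05 and 12.26. The LP values lay below all 3 NP and all 3 NPtau values, and LP minus NP was -1.05 (SE 0.32, adjusted p = 0.097 with limma). It passed when only NP and LP arrays were fitted (adjusted p = 0.019) or when NPtau replicate 2 was left out (adjusted p = 0.0491). Those fits called 315 and 674 of all genes. Hemgn stayed uncalled in 11 of 12 fits without single arrays and in 6 of 10 other alternatives.

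Bpgm, which makes the 2,3-bisphosphoglycerate that lowers the oxygen affinity of hemoglobin, read 10.59, 10.18 and 10.96 in NP and 10.22, 11.17 and 11.43 in LP. It read 10.72, 10.09 and 10.63 in NPtau and 10.30, 10.56 and 10.65 in LPtau. As for Alas2, LP replicate 1 was low and the other two LP arrays were high. The difference was 0.36 (SE 0.30, adjusted p = 0.49 with limma). It was 0.72 (SE 0.21, adjusted p = 0.0431) without LP replicate 1 and NPtau replicate 2. Those arrays were left out after seeing the data, 2914 of all genes were then called, and the pass is no separate test of Bpgm. Trim10, a ring finger protein of late erythroid cells, had -0.22 (SE 0.46) and ranged from 9.28 in NPtau replicate 2 to 10.84 in NPtau replicate 3.

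**Figure D4:**
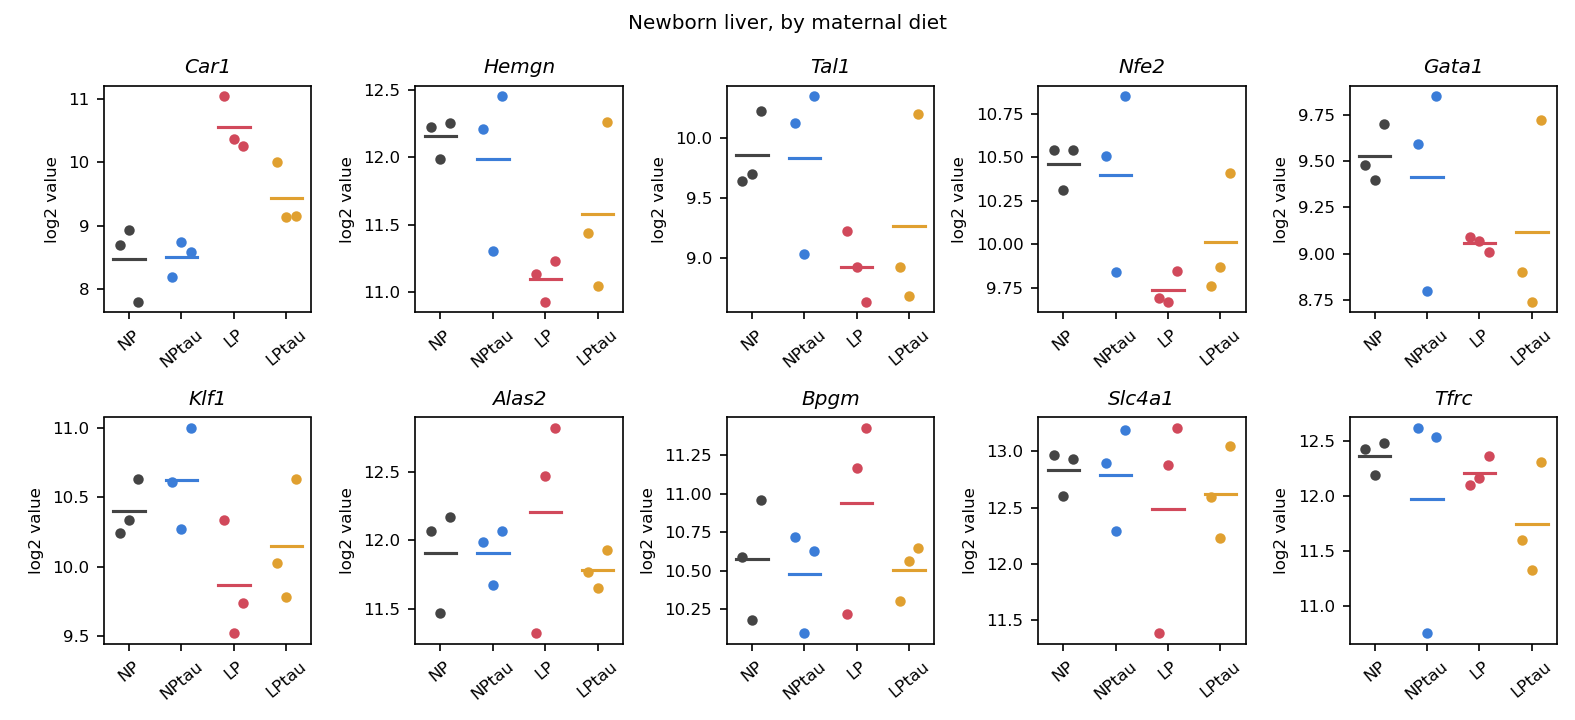
Log2 values of 10 members on the 12 liver arrays, by maternal diet; each point is 1 array and each line the group mean of 3. The 3 LP points of Car1 (10.26 to 11.04) lie above all other points, those of Hemgn, Tal1, Nfe2 and Gata1 lie below NP, and those of Alas2, Bpgm and Slc4a1 spread more widely than in any other group.

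Taurine under low protein was read as LPtau against LP, a comparison that shares the LP arrays with the one above. With limma 0 of 30 members passed, where 0.066% of all genes did, and 1 had an unadjusted p under 0.05, against 8.48% of all genes. That was Car1, at -1.13 (SE 0.33, 95% confidence interval -1.85 to -0.40, adjusted p = 0.361). It was the 1 member whose groups did not overlap, against 13.8% of all genes. The member median was 0.05, with 17 positive and 13 negative, and its sign was not stable: it was -0.21 with array weights, -0.17 without LP replicate 1, -0.24 without LPtau replicate 3 and 0.25 without LPtau replicate 2. Hemgn had 0.48 (SE 0.32) and Tal1 0.35 (SE 0.41), and Alas2 and Bpgm had -0.42 (SE 0.32) and -0.44 (SE 0.30). In LPtau the first 2 replicates were low for most members and the last was not.

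The remaining liver comparisons called 0 members. Against NP, which these comparisons share with the first, LPtau had 29 of 30 negative differences (median -0.28, over all genes 0.04), and 0% of all genes were called. The median was -0.11 without LPtau replicate 2 and -0.49 without LPtau replicate 3. By limma 2 members had an unadjusted p under 0.05, about the 6.77% of all genes, Car1 at 0.95 (SE 0.33, adjusted p = 0.647) and Rhag at -0.63 (SE 0.27, adjusted p = 0.718). Car1 was the 1 member without overlap, against 16.9% of all genes. NPtau against NP had a median of -0.08, with 0% of all genes called, 0 members at an unadjusted p under 0.05 with limma (2.75% of all genes), and 0 members without overlap, against 7.84%. That median was 0.21 without NPtau replicate 2, -0.30 without NPtau replicate 3, and -0.20 without NPtau replicate 1 or NP replicate 2. Car1 there was at 0.03 (SE 0.33). LPtau against NPtau had a median of -0.18 with 0% of all genes called. Without NPtau replicate 2 it was -0.52, without LPtau replicate 3 -0.37, without NPtau replicate 1 -0.10, without LPtau replicate 2 -0.03 and without NPtau replicate 3 0.02. Car1, the 1 member without overlap (8.89% of all genes), had 0.93 (SE 0.33, adjusted p = 0.999) and the sole unadjusted p under 0.05, against 4.74% of all genes.

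Whether taurine altered the effect of low protein was tested as the interaction, LPtau minus NPtau less LP minus NP. With limma it called 0% of all genes and 0 members. The 1 member with an unadjusted p under 0.05, against 8.46% of all genes, was Car1, at -1.15 (SE 0.47, 95% confidence interval -2.18 to -0.13, adjusted p = 0.582). The Car1 values therefore show a smaller low protein difference with taurine than without on these arrays, and the test over all genes did not pass. Hemgn had 0.65 (SE 0.45) and Tal1 0.37 (SE 0.58).

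Other genes of the same biology were read from lists of their own. Of 21 further erythroid genes, 19 had negative differences in LP liver, and the median was -0.34, near the -0.32 of the members. Of these genes 0 were called by limma and 5 had an unadjusted p under 0.05, where 22.7% of all genes did. The 5 included Ldb1, which went the other way at 0.51 (SE 0.23), with all LP values above NP. Sox6, a factor of red cell maturation, read 9.51, 9.07 and 8.94 in NP and 7.67, 7.91 and 8.05 in LP, at -1.30 (SE 0.39, adjusted p = 0.0947 with limma). Epb42, protein 4.2 of the membrane skeleton, had -1.01 (SE 0.36) and Lyl1, a relative of TAL1, -0.89 (SE 0.35). Sox6 was also low in NPtau replicate 2, at 7.79.

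A list of other heme genes did not share the negative median. Of its 12 genes 0 were called by limma (1 at an unadjusted p under 0.05), 8 were positive and the median was 0.08, near the 0.05 of all genes. Alas1, the first enzyme of heme synthesis outside red cells, read 8.96, 9.92 and 8.55 in NP and 10.07, 10.22 and 10.41 in LP. All LP values were above NP, at 1.09 (SE 0.38, adjusted p = 0.13 with limma). Of 19 iron handling genes 0 were called by limma (3 at an unadjusted p under 0.05, median 0.08). The iron reductase Steap3 had 0.60 (SE 0.20), and Tfr2, the transferrin receptor of hepatocytes, read 10.48, 10.85 and 10.79 in NP and 11.35, 11.18 and 10.99 in LP, at 0.47 (SE 0.16).

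Among 6 globin genes with a probe set of their own 0 were called by limma and 1 had an unadjusted p under 0.05. The embryonic genes had the widest spread. Hbb-y, an embryonic beta-like globin, read 9.21, 10.46 and 8.09 in NP and 8.51, 9.83 and 11.57 in LP, at 0.72 (SE 0.98, adjusted p = 0.69 with limma). In LPtau it read 6.79, 7.25 and 6.28, below all LP values, at -3.20 (SE 0.98, adjusted p = 0.39). Its NPtau values were 8.24, 10.78 and 6.85, so that its lowest NPtau array was the one on which most members were highest. Hba-x, embryonic alpha-like zeta globin, had 1.36 (SE 0.62) in LP against NP and -2.33 (SE 0.62, adjusted p = 0.274) in LPtau against LP. Hbb-bh1, another embryonic globin, had 0.48 (SE 0.27) and -0.80 (SE 0.27, adjusted p = 0.433).

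Other blood and liver cell markers moved in the same comparison, and their part in the member values was not tested. Of all genes 2.34% were called there, and 22.7% had an unadjusted p under 0.05 with limma. Of 11 genes of B cell progenitors 5 fell and the median was -1.07, with list means of -0.96, -0.80 and -1.10 in the 3 LP arrays relative to NP. Rag1, which cuts immunoglobulin genes for rearrangement, had -2.01 (SE 0.28). Ebf1, a factor that commits cells to the B lineage, had -1.90 (SE 0.29), and Blnk, Cd79b and Vpreb3 of the B cell and pre-B cell receptors had -1.79, -1.55 and -1.07. Pax5 and Dntt of the same list went the other way, at 0.28 (SE 0.11) and 0.31 (SE 0.16). Both had all LP values above NP and were not called. Unlike the members, this list was not low in NPtau replicate 2, where its mean was -0.11. Of 12 endothelial genes 4 fell (median -0.43). They were the junction genes Cdh5, Esam and Pecam1, at -1.11, -1.07 and -0.80, and Lyve1, at -1.01. The list did not fall as a whole. Kdr went the other way at 0.25 (SE 0.14), with all LP values above NP, and was not called. Tek, Eng and Tie1 were at 0.01, -0.09 and -0.14. Of 13 granulocyte genes 0 were called by limma (8 at an unadjusted p under 0.05, median -0.58, list means -0.08, -0.52 and -1.0 in LP). The granule genes Ltf, Lcn2 and Ngp were at -1.03, -0.63 and -0.58, while Ctsg was positive at 0.34 (SE 0.29). Of 12 macrophage genes 1 rose, Marco, by 1.27 (SE 0.23), while 7 were negative (median -0.15). Of these Clec4f, Adgre1 and Timd4 were at -0.90, -0.85 and -0.70, each without overlap and not called, and 4 of the 12 had an unadjusted p under 0.05. Of 10 megakaryocyte genes 0 were called (1 at that p, Vwf at -1.31, median 0.04). Of 11 hepatocyte genes 0 were called (0 at that p, median -0.08), with list means of -0.30 in NPtau replicate 2 and -0.01 to 0.00 in LP. Of 12 skeletal muscle genes 0 were called in liver (0 at that p, median 0.20).

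Muscle was read for the blood that the tissue holds, with the limit that 6 members lay below the array median on all its arrays. Low protein against normal protein called 0 of 30 members with limma, where 0.126% of all genes were called, and 2 had an unadjusted p under 0.05, against 10.8% of all genes. The member median was -0.04 (over all genes -0.01), with 12 positive and 18 negative, and -0.08 to 0.03 without single arrays. The groups did not overlap for 2 members, Uros and Sptb, both lower in LP, against 11.6% of all genes in that direction. As other cells express these 2 genes too, their values do not measure blood. Globin differences ran from -0.09 for Hbb-bh1 (SE 0.16) to 0.42 for Hba-x (SE 0.19), and no globin gene was called. Hba-a1 and Hba-a2 were at 0.04 and 0.03, and Hba-x and Hbb-b2 (0.16) were higher in LP without overlap. Most globin probe sets were near the floor in muscle. Hba-a1 read 3.51 to 3.92, Hbb-y 3.96 to 4.83 and Hbb-bh1 4.41 to 5.02, below the array median on each array. Hba-a2 read 4.48 to 4.97, Hba-x 4.37 to 5.14 and Hbb-b2 5.17 to 6.94. Differences at such low levels do not measure the blood in the tissue. Muscle replicates LP 1 and LPtau 1 stood apart from the other muscle arrays, with mean correlations of 0.956 and 0.962 to them, against at least 0.976 for the rest. LP replicate 1 was the lowest of 12 muscle arrays for 9 members (14.9% of all genes) and LPtau replicate 1 for 8 (23.4%). LPtau replicate 1 was also the highest for 7 members (24.4% of all genes), so its members stood out no more than its other genes.

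Uros, the ring-closing enzyme that all cells use, read 8.05, 8.00 and 8.41 in NP and 6.68, 7.63 and 7.20 in LP. It read 8.24, 7.95 and 7.92 in NPtau and 8.26, 7.98 and 8.16 in LPtau. All 3 LP values were below every other array, at -0.99 (SE 0.22, adjusted p = 0.106 with limma), and LPtau minus LP was 0.97 (SE 0.22, adjusted p = 0.146). The call was reached without LP replicate 2 (-1.22, adjusted p = 0.0326) and was not reached without LP replicate 1 (-0.74, adjusted p = 0.126). Its difference in liver was -0.51 (SE 0.33), a sign that 1 of 2 probe sets shared. The interaction in muscle was 1.08 (SE 0.31, adjusted p = 0.672).

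Sptb, which muscle fibres express as well as red cells, read 8.44, 8.28 and 8.19 in NP and 6.98, 8.16 and 7.99 in LP. It read 8.36, 8.00 and 7.98 in NPtau and 8.20, 8.44 and 8.30 in LPtau. The difference of -0.59 (SE 0.26, adjusted p = 0.435 with limma) was -0.23 without LP replicate 1. In liver a different probe set of Sptb was used, as for Add2. Epor read 6.77, 6.61 and 6.40 in NP and 6.07, 6.19 and 6.67 in LP, at -0.28 (SE 0.22). Its NPtau values were 6.79, 6.17 and 6.68 and its LPtau values 6.35, 6.14 and 6.72, so the groups overlapped.

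Alas2 had the widest range of the members in muscle. It read 6.84, 7.23 and 8.07 in NP, 9.20, 7.80 and 7.21 in NPtau, 7.17, 8.06 and 8.38 in LP, and 5.78, 7.17 and 7.39 in LPtau. NPtau replicate 1 was the highest and LPtau replicate 1 the lowest, and those of Slc25a37 (6.11 to 8.30) were the same arrays. The difference of LP from NP was 0.49 (SE 0.57, adjusted p = 0.857 with limma). Bpgm ran from 5.94 in LP replicate 1 to 7.79 in NPtau replicate 1. Tspan33 read 6.17, 6.17 and 6.04 in NP and 5.83, 6.90 and 6.80 in LP, at 0.38 (SE 0.24, adjusted p = 0.647). Its other values were 6.10, 6.34 and 5.97 in NPtau and 6.15, 6.39 and 6.23 in LPtau. Without LP replicate 1 and LPtau replicate 1 the difference was 0.72 (adjusted p = 0.0303 with limma). Those arrays were left out after seeing the data, and 293 of all genes were then called. Cpox read 6.42, 6.31 and 6.39 in NP, 6.78, 6.33 and 6.79 in LP, 6.31, 6.55 and 6.28 in NPtau and 6.25, 6.75 and 6.29 in LPtau, at 0.26 (SE 0.17).

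Slc4a1 was highest in muscle LP replicate 3, at 6.93, against 5.25 to 6.12 on the other arrays. On that array the mean of 11 hepatocyte genes was also highest, 1.63 above the NP mean, with Alb at 9.75 and the fetal hepatocyte protein Afp at 9.71. Alb ran from 5.46 to 8.97 on the other muscle arrays. In LP against NP muscle the 11 hepatocyte genes ran from 0.00 for Tat to 2.12 for Afp (median 0.50), and all 12 skeletal muscle genes had negative differences (median -0.30), with 0 called in either list by limma and 0 and 4 at an unadjusted p under 0.05. The part of these cells in the muscle values was not tested. Car1 in muscle read 3.74 to 4.04 over the 12 arrays, below the array median on each, and had 0.09 (SE 0.11) in LP against NP.

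**Figure D5:**
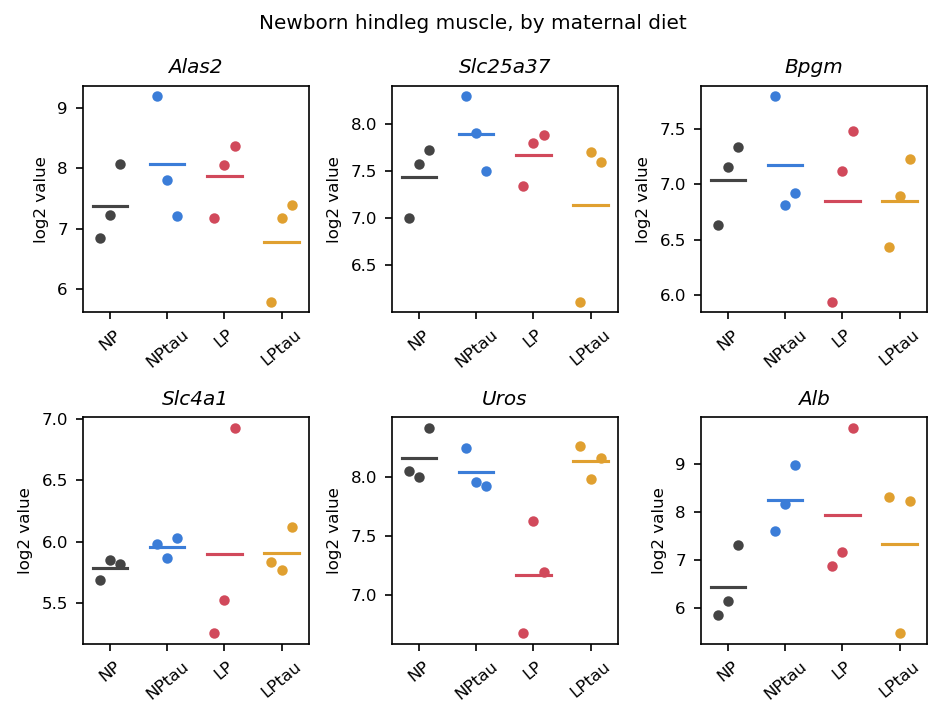
Log2 values of 5 members and of albumin (Alb) on the 12 muscle arrays, by maternal diet; each point is 1 array and each line the mean of 3. The 3 LP points of Uros (6.68 to 7.63) lie below all others, and the highest Slc4a1 point (6.93) and the highest Alb point (9.75) come from the same LP array.

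The other muscle comparisons called 0 members with limma. LPtau against LP, where 0.022% of all genes were called, had 2 members at an unadjusted p under 0.05 (12.9% of all genes), Uros and Sptb (0.60, SE 0.26), and these 2 were without overlap, against 16.1% of all genes. The rest called 0% of all genes. NPtau against NP had 0 members at an unadjusted p under 0.05, and Slc4a1 was the 1 member without overlap (5.4% of all genes), at 0.17 (SE 0.34). Hepatocyte genes were high in NPtau muscle as well, with list means of 0.46, 0.83 and 0.90 above NP and Alb at 1.81 (SE 0.87) without overlap, and 0 of 11 were called (1 at that p). LPtau against NP had 0 members at that p, and Urod was the 1 without overlap (10.5%), at -0.21 (SE 0.14). LPtau against NPtau had 1 member at that p, Alas2 at -1.29 (SE 0.57, adjusted p = 0.737, 5.45% of all genes at that p), and 0 without overlap (10.4%). In the interaction, where 6.56% of all genes had that p, the 2 members were Uros and Alas2, the latter at -1.78 (SE 0.81, adjusted p = 0.758).

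The low protein differences of the 2 tissues were set against each other in a fit of all 24 arrays. The difference of Car1 was larger in liver than in muscle by 1.99 (SE 0.36, adjusted p = 0.00831 with limma), and it was the 1 of 30 members called, where 1.97% of all genes were. Car1 and Hemgn lay below the array median on all 12 muscle arrays, so for them this comparison largely repeats the liver difference and does not show how an expressed gene differed between the tissues. Hemgn, at -1.15 (SE 0.36, adjusted p = 0.104), and Cpox, at -1.0 (SE 0.33, adjusted p = 0.122), did not pass. For LPtau against LP 0 members passed, where 0.258% of all genes did. With limma 2 had an unadjusted p under 0.05, against 14.4% of all genes, Uros at -1.07 (SE 0.42) and Car1 at -1.12 (SE 0.36, adjusted p = 0.202).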

How the data were processed

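The deposited values were log2 expression values per probe set of 24 single-channel Affymetrix arrays, made by the authors with RMA (R 2.7.0, from the submitters' processing notes, which also name MAS5 without its role). Per the labels, liver and muscle were normalized separately, and RMA compresses large differences. No further normalization or filter was applied. Of 45101 probe sets 34945 had 1 gene symbol, 932 several, 9160 none and 64 were controls. The probe set with the highest mean per tissue stood for its gene, giving 18193 genes.

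Each tissue was fitted with limma 3.58.1 (R 4.3.3) over 12 arrays and 4 diet means, with Benjamini-Hochberg adjustment over all genes and calls at an adjusted p under 0.05. Both tissues were fitted together for the tissue difference. The fit was tested on simulated data with independent noise for each gene and array. Such data hold no shifts of many genes together on a single array, as seen for the members in liver. The smallest two-sided exact permutation p for 3 arrays a group is 0.1, so calls depend on the variance limma shares across genes.

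The members and gene lists were chosen with earlier results of these data known. By rule, the values on each array were given for called members, the 4 most positive and 4 most negative in liver and the 3 and 3 in muscle, and Alas2, Gata1, Klf1, Tfrc, Slc4a1 and Car2. Other genes given by array were chosen after their values were seen. Of each other list the called members, or up to 3 of those with the smallest p, were named. Ldb1, Pax5, Dntt, Kdr, Tek, Eng, Tie1, Ctsg, Car8, Car13, Car14, 3 further macrophage genes and muscle globin and hepatocyte genes were named after their values were seen. Upstream sequences came from RefSeq, assembly GRCm38.p6. Alternatives covered normalization, probe set choice, a filter, the variance model, array weights, replicate number, the arrays fitted, the sex of the pup and shared pups.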

Additional observations from a re-analysis of the deposited data

Results flagged for a closer look

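The fitted difference of Car1 between LP and NP pups was larger in liver than in muscle by 1.99 on the log2 scale (SE 0.36, limma adjusted p = 0.00831), with differences of 2.08 (SE 0.33) in liver and 0.09 (SE 0.11) in muscle, from 3 arrays in each group. Car1 read 3.74 to 4.04 in muscle, below the array median on all 12 arrays, so this value largely repeats the liver difference and is no comparison of 2 tissues that express the gene.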

How the results depend on the processing

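The count of members called in LP against NP liver was 1 in the main analysis, where 425 of 18193 genes were called. It was 10 with array weights (Car1 higher and 9 lower), where 4727 of all genes were called. With only the NP and LP arrays fitted it was 3 (315 of all genes), and with single arrays left out 0 to 3 (21 to 2013 of all genes). It was 5 with LP replicate 1 and NPtau replicate 2 both left out, where 2914 of all genes were called. That alternative was chosen after seeing the data. In muscle the count in LP against NP, 0 in the main analysis (23 of all genes), was 1 with array weights (Uros, 789 of all genes). It was 1 without LP replicate 1 and LPtau replicate 1 (Tspan33, 293 of all genes), also chosen after seeing the data. Without single arrays it was 0 to 1 (2 to 126 of all genes). In LPtau against LP muscle it was 0 to 1 without single arrays. The tissue difference called 1 member in the main analysis, 6 with array weights and 1 to 2 without single arrays. Of all genes it called 119 to 762 without single arrays, and 250 to 2736 over the other alternatives. The cause of these shifts was not tested.

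In 0 of 10 comparisons did all 3 correlations of same-numbered deviations pass 0.1, so the numbers were not taken to pair the samples. In 2 of the 10 each number correlated best with itself, a hint from the data only (LPtau and NP liver 0.0989, 0.234 and 0.117, LPtau and NP muscle 0.0626, 0.282 and 0.144), while LP and NP liver gave -0.0245, -0.185 and -0.00763. With the replicate number as a block 2 members were called in LP against NP liver (Car1 and Hemgn) and 2 in the tissue difference, and no other count of members changed. Reversed signs were seen for Tfrc in LP against NP liver (0.03 with averaged probe sets), for Slc4a1 (0.21 with LP replicate 1 and NPtau replicate 2 left out, and -0.70 to 0.21 without single arrays), for Alas2 (-0.01 to 0.74) and for Urod (-0.04 to 0.40). Car1 in NPtau against NP, 0.03 in the main analysis, was -0.31 to 0.25 without single arrays, -0.09 without LP replicate 1 and NPtau replicate 2, and -0.01 with the sex of the pup in the fit, an alternative chosen after seeing the data. The called difference of Car1 in LP against NP liver stayed at 1.84 to 2.14 over the settings that keep 3 arrays per group or leave out those 2 arrays together, with adjusted p of 0.00217 to 0.0393 with limma.

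The count over all genes in LP against NP liver, 425 (202 higher and 223 lower), was 505 with quantile normalization (294 higher and 211 lower), 4727 with array weights, 2914 with LP replicate 1 and NPtau replicate 2 left out, 244 with sex in the fit, and 21 (without NP replicate 1) to 2013 (without LP replicate 1) over single arrays. In muscle the 23 genes of LP against NP were 2 to 126 over single arrays. The interaction and taurine comparisons called 0 members in liver under each alternative run. Labels do not say whether liver and muscle of 1 number came from the same pup. The sex matched for 12 of 12 numbers. With the arrays of a number as 1 pup (a random block chosen after seeing the data, correlation 0.0821) the tissue difference of Car1 was 1.99 (SE 0.35, adjusted p = 0.00551 with limma), with 1 member called.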
